A study of Apis mellifera with 12 samples.

Results

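In antennae of honey bee (Apis mellifera) workers, 30 genes listed in the counts by a LOC number were highest in the workers labelled defenders. A LOC number is the placeholder that NCBI gives to a predicted gene with no assigned symbol. The 30 were chosen from these same data, out of 12319 genes in the count table. A gene had to have a LOC name, had to be absent from the 5 deposited tables of splice events, and had to have a mean of at least 5 CPM in defenders (the count of a gene over the total count of its library, times 1e6). Its mean log2(CPM + 0.5) in defenders had to exceed that of each other group by at least 0.4, and all 3 defender libraries had to lie above all 9 others. The smallest of those 3 differences between group means is called the margin below. Of 11185 LOC genes outside the splice tables, 7575 reached 5 CPM in defenders. In 241 of them the defender libraries lay above all others, and 30 of these also had the margin.

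Antennal RNA was sequenced in 12 libraries, 3 each from newly emerged workers, nurses, foragers and defenders. All are workers of 1 species, and the labels name no other treatment, strain or genotype. Neither the ages nor the colonies nor the number of bees per library are given in the sources used here, and nor is the behaviour by which a worker was taken to be a defender. Task and age therefore cannot be told apart, and error estimates measure the spread between libraries, which may be technical.

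The antenna is the main organ of smell and touch of the bee. Its sensilla hold the olfactory neurons, whose odorant receptors work together with the shared co-receptor Or2, and support cells that secrete odorant binding proteins into the fluid around the neurons. Adult workers change tasks as they grow older, from work inside the nest to foraging. Defence of the colony includes guarding the entrance and stinging intruders, and it is recruited by an alarm pheromone that other workers smell with their antennae. None of the 30 genes has a name, a product or a role in the sources used here, so they are described by their levels, their RNA class and their neighbours.

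Library totals ran from 66708813 to 119703929 counts, so that 1 CPM stands for 66.7 to 119.7 counts, and the smallest count of any of the 30 genes in any library was 153. Nurse library 3 and forager library 2 were most often the lowest of the 9 libraries outside the defenders. They were lowest for 21.2% and 21.0% of the other LOC genes at 5 CPM or more in defenders, against 3.37% to 16.4% for the remaining 7. Newly emerged library 2 was most often the highest of the 9, for 19.2% of those genes. Markers of the labelled tissue were abundant: Obp1 and Obp2, odorant binding proteins of the antenna, summed to between 16865 and 44302 CPM in every library. Transcripts of other cell types were also present. The summed level of 8 hypopharyngeal gland genes (Mrjp1 to Mrjp7 and Hbg3) was 279 to 291 CPM in defenders, 428 to 432 in foragers, 389 to 2470 in nurses and 34.4 to 37.8 in newly emerged workers. The 6 listed muscle genes summed to 868 to 1153 CPM in defenders, 832 to 1033 in foragers, 932 to 1436 in nurses and 2021 to 2289 in newly emerged workers. For 4 opsin genes the sum was 16.0 to 21.9 CPM in defenders and 13.4 to 61.7 across the other libraries. Haemolymph and fat body markers (PPO, and Vg with Hex70a and Hex110) were at 10.3 to 12.2 and 17.7 to 41.1 CPM in defenders. The glial marker Eaat-2 was at 16.6 to 18.8 CPM in defenders and the venom gene Melt at 0.160 to 0.251. No listed marker was at 0 in all libraries of a group. Gland, muscle, photoreceptor, haemocyte and fat body sums were not highest in defenders, and their part in the levels below was not tested.

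The rise in defenders was moderate for each gene. The margin ran from 0.41 to 0.95 with a median of 0.51, so no gene was 2-fold above every other group on this scale. Over the 7575 LOC genes at 5 CPM or more in defenders the median of the same quantity was -0.16. It was at least 0.5 in 17 of the 30 and at least 0.6 in 8. Against newly emerged workers the difference in mean log2(CPM + 0.5) was 0.41 to 1.83 (median 0.69), against nurses 0.42 to 1.425 (median 0.73) and against foragers 0.43 to 0.98 (median 0.62). It reached 1 in 5 genes against newly emerged workers, in 4 against nurses and in 0 against foragers. These differences were used to choose the genes, so they are given without a test.

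**Figure D1:**
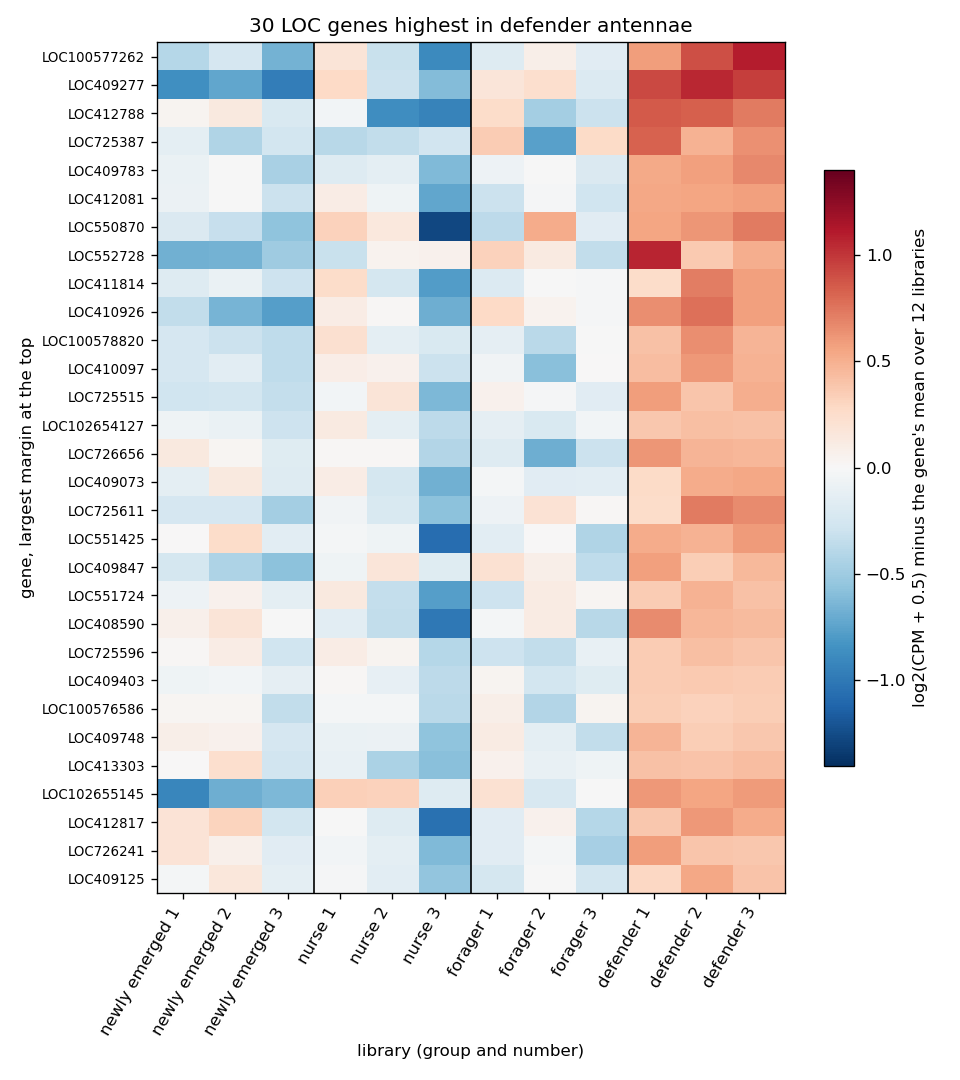
Levels of the 30 genes (rows, largest margin at the top) in the 12 libraries (columns, by worker group), as log2(CPM + 0.5) minus the mean of the gene over the 12 libraries; red is higher and blue lower. The 3 defender columns are the highest of every row because the genes were chosen so, while nurse library 3 is the bluest of the other 9 columns in 20 of the 30 rows.

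Of the 30 genes, 28 are annotated as protein coding and 2 as long non-coding RNA (lncRNA) in the RefSeq annotation of the Amel_HAv3.1 assembly. Among LOC genes at 5 CPM or more in defenders with an entry there, 342 of 7575 (4.51%) are lncRNA genes. The gene with the largest margin, 0.95, was one of the lncRNA genes, LOC100577262. It was at 5.29, 6.73 and 7.81 CPM in the defender libraries, against 2.90, 3.59 and 2.95 in foragers, 3.88, 2.62 and 1.59 in nurses and 2.43, 2.77 and 1.94 in newly emerged workers. Mean levels were 6.61 ± 1.27 CPM in defenders and 3.15 ± 0.383 in foragers (SD, n = 3), a ratio of 2.10. Each defender library exceeded the highest other library, nurse library 1, by at least 1.36 times. This gene overlaps the protein-coding gene LOC552244, at 82.7 CPM in defenders and 103.07 in newly emerged workers, and the lncRNA gene LOC102655981. Use of strand in the counting was not given in the sources used here, so reads of overlapping genes may not be told apart.

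The other lncRNA gene, LOC102655145, differed in defenders more from newly emerged workers than from nurses or foragers. Its level was 58.9, 56.7 and 58.3 CPM in defenders, 44.8, 32.8 and 38.4 in foragers, 48.6, 48.4 and 34.0 in nurses and 20.2, 23.8 and 24.7 in newly emerged workers. All libraries of nurses, foragers and defenders thus lay above those of newly emerged workers, and defenders lay above nurses, the next group, by a margin of 0.42. That margin was 0.25 without nurse library 3. It overlaps LOC413034, a protein-coding gene at 64.4, 62.1, 70.8 and 69.8 CPM in newly emerged workers, nurses, foragers and defenders, which did not share that pattern.

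LOC409277 showed the widest separation of the protein-coding genes. Defender libraries held 68.8, 75.1 and 70.9 CPM, forager libraries 40.6, 42.5 and 31.4, nurse libraries 43.8, 29.0 and 23.5, and newly emerged libraries 19.6, 21.5 and 18.2. The lowest defender library stood 1.57 times above the highest of the other 9, the largest such gap among the 30 genes. The mean rose from 19.8 ± 1.65 CPM in newly emerged workers to 71.6 ± 3.20 in defenders, a ratio of 3.62.

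LOC412788 had a different order of groups. It was at 153, 151 and 139.9 CPM in defenders, at 86.3, 92.3 and 72.4 in newly emerged workers, at 100.5, 60.3 and 68.3 in foragers, and at 81.8, 46.0 and 43.7 in nurses. Defender libraries lay at least 1.39 times above all others, and the remaining groups overlapped one another. Nurses were the lowest group on average, at 57.2 ± 21.4 CPM against 148 ± 7.18 in defenders, a ratio of 2.59.

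LOC725387 was split within the foragers. Libraries 1 and 3 of the foragers were at 92.6 and 87.0 CPM and library 2 at 42.4, the lowest of all 12. Defenders were at 128, 101 and 112 CPM, nurses at 54.9, 56.9 and 59.6, and newly emerged workers at 65.6, 53.7 and 60.2. Without forager library 2 its margin was 0.34 in place of 0.69, and the lowest defender library exceeded forager library 1 by 1.09 times.

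LOC409783 and LOC412081 were nearly level outside the defenders. LOC409783 stood at 81.8, 84.5 and 90.1 CPM in defenders and between 36.6 and 56.2 in the other 9 libraries. LOC412081 stood at 200.04, 201 and 205 CPM in defenders and between 82.4 and 148 elsewhere. Group means outside the defenders were 45.8 to 53.0 CPM for LOC409783 and 119.9 to 126 for LOC412081, a range smaller than the SD within nurses in both genes. Their defender means were 1.61 to 1.86 and 1.61 to 1.68 times those of the other groups.

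**Figure D2:**
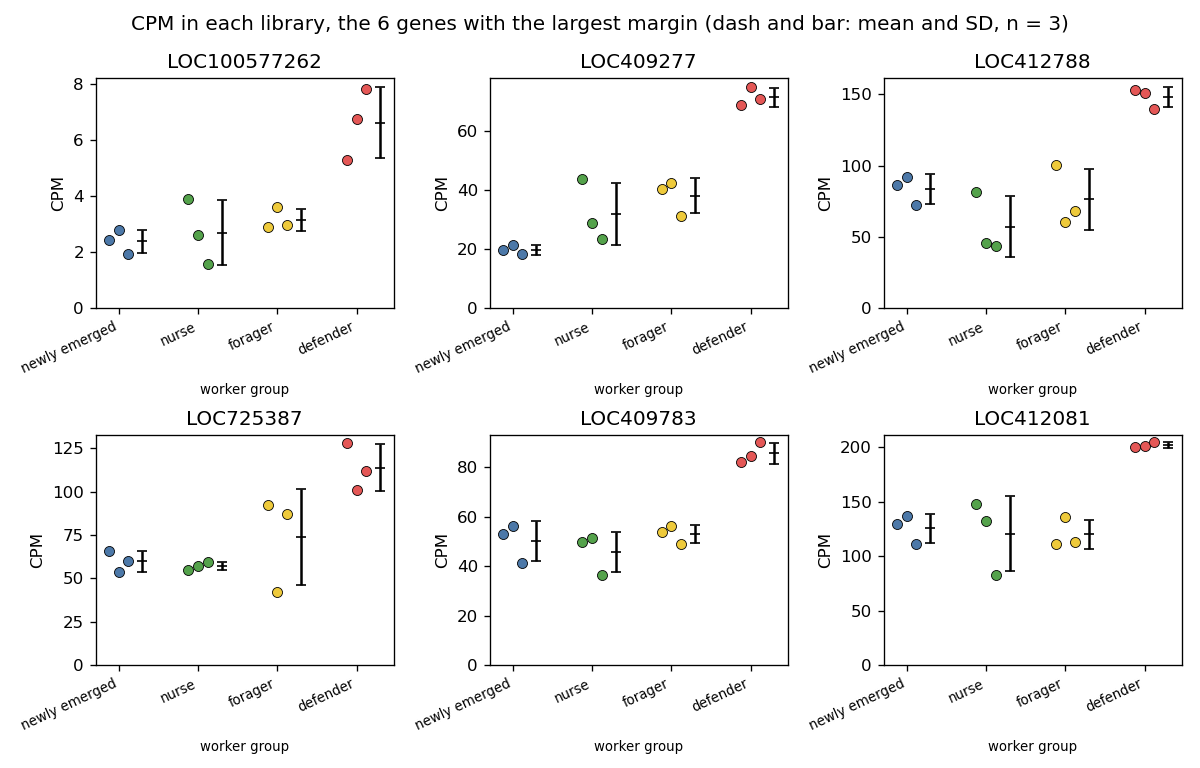
CPM (vertical axis, from 0) of the 6 genes with the largest margin in each library of the 4 worker groups (points), with the mean and SD of each group (dash and bar, n = 3). The defender points of LOC412081 lie between 200.04 and 205 CPM, while the nurse points spread from 82.4 to 148.

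In 3 more genes of large margin, single libraries of other groups came close to the lowest defender library. LOC550870 (margin 0.63) was at 22.0, 23.1 and 24.8 CPM in defenders, but forager library 2 reached 21.6 and nurse library 3 was at 5.86. LOC552728 (margin 0.61) was at 11.7, 6.98 and 7.76 CPM in defenders, with forager library 1 at 6.78. Without defender library 1 its margin was 0.399, just under the required 0.4. It had the largest spread among defenders of all 30 genes, 1.67 times from lowest to highest. LOC411814 (margin 0.59) was at 62.3, 85.6 and 77.5 CPM in defenders and at 62.2, 43.6 and 30.1 in nurses, so that nurse library 1 was level with defender library 1 while the group means were 1.66 times apart. LOC410926 (margin 0.56) was further from the others, at 46.7, 50.8 and 44.0 CPM in defenders and at most at 36.0, in forager library 1.

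Of the 8 genes with the highest mean CPM in defenders, LOC412081 and LOC412788 are described above and the other 6 had margins of 0.43 to 0.56. LOC725596 was at 589.9, 618 and 606 CPM in defenders and between 351 and 498 in the other libraries. LOC551425 was at 331, 323 and 349.8 CPM in defenders and reached 276 elsewhere, in newly emerged library 2; its lowest value was 109.8, in nurse library 3. LOC409748 was at 286, 261 and 267 CPM in defenders against 139 to 223 elsewhere. LOC100576586 was at 231, 228 and 232 CPM in defenders, with 137 to 193 in the rest. For LOC726656 the defenders held 151, 137 and 135 CPM and foragers 86.3, 60.6 and 79.6, the lowest group of that gene. LOC410097 was at 122, 137 and 126 CPM in defenders and at 59.6 to 95.6 elsewhere. CPM is not scaled to transcript length, so the order of these levels between genes is not a ranking of transcript abundance.

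The remaining members that met the rule were LOC100578820, LOC725515, LOC102654127, LOC409073, LOC725611, LOC551724, LOC408590, LOC409403, LOC413303, LOC409847, LOC412817, LOC726241 and LOC409125. Their margins lay between 0.41 and 0.56. LOC409403 was the tightest of all in defenders, at 30.9, 31.1 and 30.8 CPM, against 18.5 to 24.7 in the other libraries. Just inside the required margin were LOC412817, LOC726241 and LOC409125, at 0.42, 0.42 and 0.41. The margin of LOC412817 was 0.25 without newly emerged library 3. Just outside it, with all other conditions met, were LOC724955, LOC551997 and LOC550735, at 0.39 each. No break in the margin separated the 30 genes from those just below them.

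The lowest defender library exceeded the highest other library by a median of 1.17 times, with a range from 1.002 times (LOC411814) to 1.57 times (LOC409277). The gap was at least 1.1 times in 22 genes. Among the defenders, library 1 was the highest of the 3 in 10 genes, library 2 in 12 and library 3 in 8. The summed CPM of the 30 genes was 3203, 3197 and 3202 in the defender libraries and 1547 to 2315 in the others.

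The same rule was applied with each other group in the place of the defenders, to set the size of this group. It found 821 LOC genes highest in newly emerged workers, 24 highest in foragers and 15 highest in nurses. A margin of at least 1 was reached by 223 of the newly emerged genes, by 2 of the forager genes, by 2 of the nurse genes and by 0 of the defender genes. Of the 822 genes with a symbol, 0 were highest in defenders by this rule, against 52 in newly emerged workers, 11 in nurses and 3 in foragers. Only 0.27% of the LOC genes outside the splice tables passed for defenders. The 0 among 822 genes therefore does not show that such peaks are confined to LOC genes. In the splice tables, 3 more LOC genes met the conditions on level, LOC409711 (margin 0.71), LOC725581 (0.59) and LOC107964204 (0.45), and were left out by the rule. With the conditions reversed, 16 LOC genes were lowest in defenders.

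The order of the other 3 groups was not part of the rule, and it differed among the 30 genes. In 11 genes nurses were lowest, then foragers, then newly emerged workers. In 9 genes the mean log2(CPM + 0.5) went up from newly emerged workers to nurses to foragers to defenders: LOC100577262, LOC409277, LOC550870, LOC552728, LOC410926, LOC725515, LOC102654127, LOC725611 and LOC409847. In LOC102654127 and LOC409847 nurses and foragers were level, with fitted log2 fold changes between them of -0.03 and -0.00433. In 5 genes the order was nurses, newly emerged workers, foragers; in 3, newly emerged workers, foragers, nurses; and in 2, foragers, nurses, newly emerged workers. The group next to the defenders was foragers in 14 genes, newly emerged workers in 13 and nurses in 3. Without nurse library 3 it was nurses in 14, newly emerged workers in 9 and foragers in 7, so this order rests on that library. Most of these steps did not pass the tests that follow.

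Differences among the other 3 groups were tested across all 11271 genes that passed a filter on low counts, which all 30 members did, with edgeR's quasi-likelihood test and Benjamini-Hochberg adjustment. The question is whether genes that peak in defenders also changed between workers that have just emerged, workers on brood care and workers that forage.

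Between nurses and newly emerged workers, 4 of the 30 genes were called higher in nurses and 0 lower. The 13.3% called higher was near the 18.9% of all tested genes called higher. A further 20.7% of all tested genes were called lower, 39.6% in both directions. The 4 were LOC102655145, LOC409277, LOC552728 and LOC409847. Genes highest in newly emerged workers, 821 LOC genes by the same rule, could not be among the 30. Part of the gap to the 39.6%, and to the 20.7% called lower, may therefore follow from the choice of genes. The 30 were also more spread than the other LOC genes, with a median SD of log2(CPM + 0.5) of 0.29 against 0.14 in nurses. In newly emerged workers it was 0.16 against 0.11. A difference of a given size was thus harder to call in the 30. At unadjusted p under 0.05 there were 6 higher and 3 lower, and DESeq2 called 5 higher and 1 lower. Over all genes, 5484 of 11271 passed at unadjusted p under 0.05. DESeq2 called 2312 higher and 2574 lower of 11637 genes. The median log2 fold change of the 30 was -0.01, against 0.02 over all tested genes, with a range from -0.51 to 0.97. LOC102655145 rose from 22.9 ± 2.38 CPM in newly emerged workers to 43.7 ± 8.42 in nurses (log2 fold change 0.97, edgeR adjusted p = 0.000459, SE 0.15), with all 3 nurse libraries above the newly emerged ones. LOC409277 rose from 19.8 ± 1.65 to 32.1 ± 10.5 CPM (a log2 fold change of 0.74, SE 0.19, edgeR adjusted p = 0.00879). Its log2 fold change was 0.45 without nurse library 1. Lower but not called were LOC412788 and LOC408590, at log2 fold changes of -0.51 and -0.50 (edgeR adjusted p = 0.0974 and 0.0521). With the library number as a block there were 5 higher and 3 lower calls, against 2238 higher and 2451 lower over all tested genes. The lower calls among the 30 were LOC412788, LOC408590 and LOC413303 (edgeR adjusted p = 0.0227, 0.0128 and 0.0499).

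The number of calls depended on single libraries. Without nurse library 2 it was 2, without newly emerged library 2 it was 2, and without newly emerged library 3 it was 2 higher and 1 lower. Without nurse library 3 it was 7 higher, without nurse library 1 it was 3 higher and 4 lower, and without forager library 2 or 3 there was 1 lower call beside the higher ones. Over all tested genes these fits called 1567 to 2404 higher and 1695 to 2579 lower. LOC552728 rose from 3.31 ± 0.256 to 5.09 ± 0.770 CPM (log2 fold change 0.66, edgeR adjusted p = 0.0385). That call was lost without newly emerged library 1, 2 or 3 and without nurse library 2 or 3, with log2 fold changes of 0.59 to 0.73 in those fits. LOC409847 rose from 24.8 ± 2.86 to 32.9 ± 4.12 CPM (log2 fold change 0.45, edgeR adjusted p = 0.0351), a call lost without newly emerged library 2 or 3 and without nurse library 1 or 2, with log2 fold changes of 0.33 to 0.48 in those fits. Over all 18 alternatives the adjusted p ran from 0.0154 to 0.105 for LOC552728 and from 0.00796 to 0.135 for LOC409847.

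Foragers compared with newly emerged workers gave much the same short list. Of the 30 genes, 5 were higher in foragers and 0 lower. The 16.7% called higher was near the 23.6% of all tested genes called higher. A further 24.4% of all tested genes were called lower, 47.9% in both directions. Both comparisons share the newly emerged libraries, so they are not independent. The limits from the choice of genes and from their spread hold here too. In foragers the median SD was 0.21 in the 30 against 0.15 in the other LOC genes. The 5 were LOC409277, LOC102655145, LOC410926, LOC552728 and LOC409847. At unadjusted p under 0.05 there were 6 higher and 1 lower, and DESeq2 called 6 higher and 0 lower. Over all genes, 6190 of 11271 passed at unadjusted p under 0.05. DESeq2 called 2839 higher and 2926 lower of 11637 genes. LOC409277 rose from 19.8 ± 1.65 to 38.2 ± 5.94 CPM (a log2 fold change of 0.97, SE 0.19, edgeR adjusted p = 0.00133). LOC102655145 rose to 38.7 ± 6.01 CPM (log2 fold change 0.78, SE 0.15, edgeR adjusted p = 0.00134). LOC410926 rose from 19.6 ± 3.18 to 32.0 ± 3.60 CPM (a log2 fold change of 0.72, SE 0.19, edgeR adjusted p = 0.00699). In each of these 3 genes all forager libraries lay above all newly emerged libraries.

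LOC552728 (3.31 ± 0.256 to 5.57 ± 1.37 CPM, log2 fold change 0.77, edgeR adjusted p = 0.0155) was not called without forager library 1. LOC409847 (24.8 ± 2.86 to 33.2 ± 6.56 CPM, log2 fold change 0.44, edgeR adjusted p = 0.0306) was not called without forager library 1 or 2, without newly emerged library 2 or 3, or when only the 6 libraries compared were fitted. Over all alternatives the adjusted p ran from 0.00366 to 0.0646 for LOC552728 and from 0.00509 to 0.124 for LOC409847. Without nurse library 3, which is in neither group compared, 7 genes were higher and 1 was lower. Without forager library 1 there were 3 higher and 1 lower. With the library number as a block there were 5 higher and 1 lower, LOC726656 (log2 fold change -0.36). Over all tested genes these fits called 2462 to 2758 higher and 2472 to 2934 lower. LOC409847 also overlaps the lncRNA gene LOC102655223, which was at 0.885 CPM in newly emerged workers, 15.3 in nurses, 14.8 in foragers and 20.3 in defenders.

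Between foragers and nurses 0 of the 30 genes were called by edgeR or by DESeq2, and 1 passed at unadjusted p under 0.05. Over all tested genes edgeR called 4.01% (1.91% higher and 2.1% lower in foragers), and 1939 of 11271 passed at unadjusted p under 0.05. DESeq2 called 449 higher and 436 lower of 11637 genes. Log2 fold changes of the 30 ran from -0.28 to 0.40 with a median of 0.11, against 0.01 over all tested genes. Of the 30, 22 were above 0. In nurse library 3, 28 of the 30 were below the mean of the other nurse libraries, so the genes are not independent counts. The part of that library in this lean was not tested. Nurses were the lowest group in 16 genes and foragers in 2. Without nurse library 3, nurses were lowest in 5 and foragers in 10. The smallest adjusted p was 0.255, for LOC413303. Without forager library 2, LOC725387 was called higher in foragers (log2 fold change 0.63, edgeR adjusted p = 0.0171), against 0.35 and adjusted p = 0.467 with all libraries. Over the alternatives that was the single call in this comparison.

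**Figure D3:**
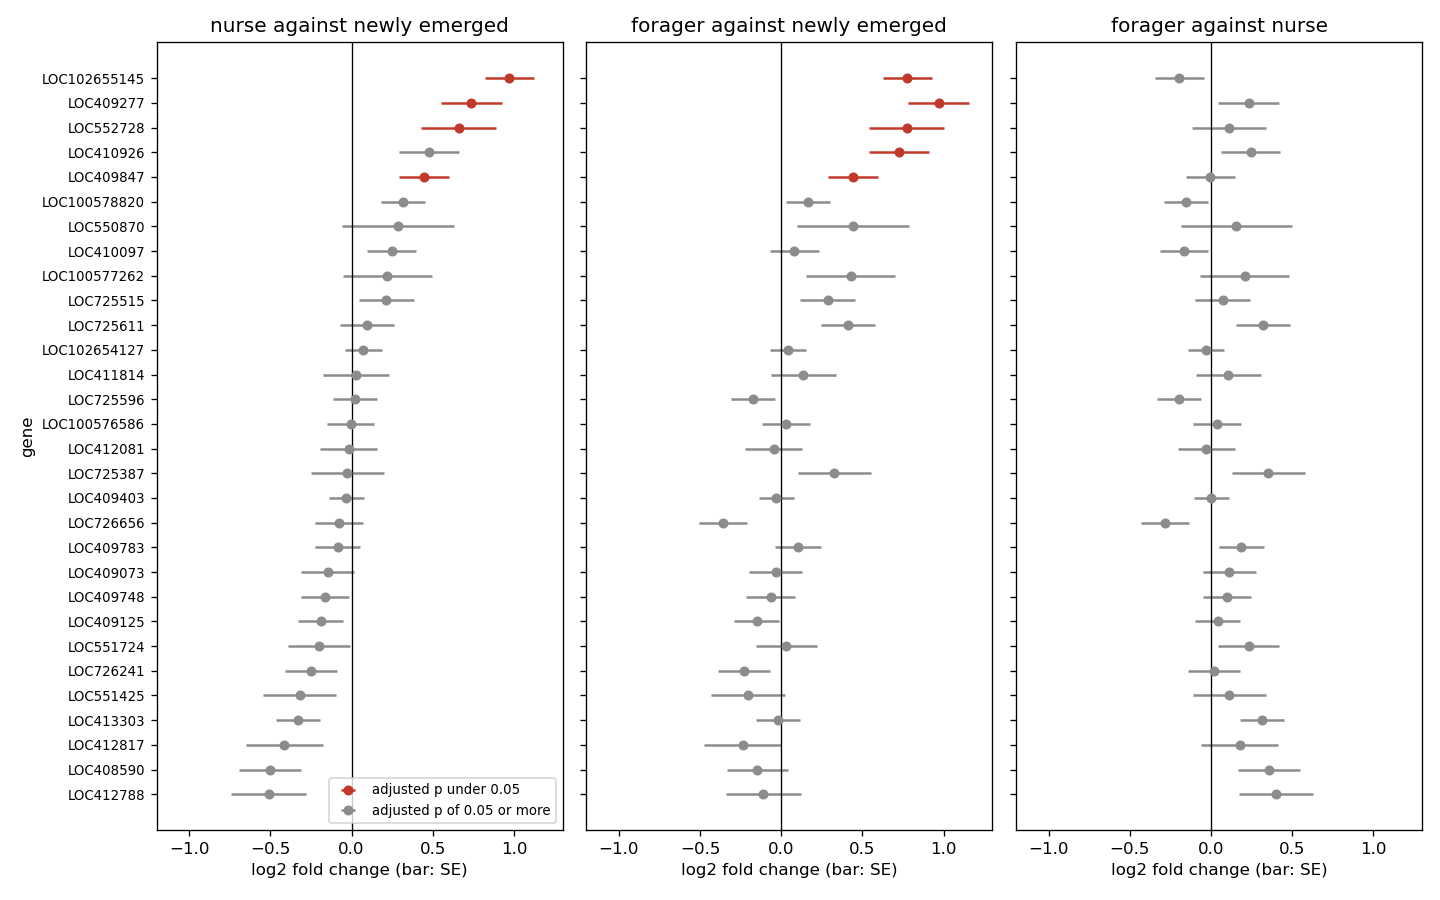
Log2 fold changes (horizontal axis; bar, SE) of the 30 genes between the 3 groups that are not defenders, from edgeR, in the same gene order in each panel; red points have an adjusted p under 0.05. In the first panel 4 genes are red, in the second 5 and in the last 0, and the red points all lie above 0.

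In nurse library 3 and newly emerged library 3 most of the 30 genes were low together. In nurse library 3, 28 of the 30 were below the mean of the other nurse libraries on the log2(CPM + 0.5) scale, by a median of 0.48, with a range of the difference from -1.50 to 0.19. Over the 7545 other LOC genes at 5 CPM or more in defenders the median difference was -0.01, and 50.9% were below. Nurse library 3 was the lowest of the 9 libraries outside the defenders for 20 of the 30 genes, against 21.2% of the other LOC genes. In newly emerged library 3, 27 of the 30 were below the other newly emerged libraries (median difference -0.24), against 47.6% of the other LOC genes. Forager library 3 had 20 of the 30 below (median -0.11) and defender library 1 had 19 (median -0.02). Defender libraries 2 and 3 had 15 below each, and forager library 2 had 14. Fewest were below in nurse library 1 (3, median 0.36) and newly emerged library 2 (5, median 0.15). Nurse library 2 had 7 below, and newly emerged library 1 and forager library 1 had 8 each. These nurse and newly emerged values are measured in part against the low library of their group. Nurse library 1 was the highest of the 9 for 10 of the 30 genes, against 4.96% of the other LOC genes. Which library is highest or lowest among the 9 bears in part on the choice of the genes, so no test is given.

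The spread between libraries was widest in nurses and narrowest in defenders. The median SD of log2(CPM + 0.5) over the 30 genes was 0.29 in nurses, 0.21 in foragers, 0.16 in newly emerged workers and 0.09 in defenders. Over the other LOC genes it was 0.14, 0.15, 0.11 and 0.08. In 23 of the 30 genes nurses had the largest SD of the 4 groups. A rule that asks for all defender libraries above all others favours genes that are tight in defenders.

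**Figure D4:**
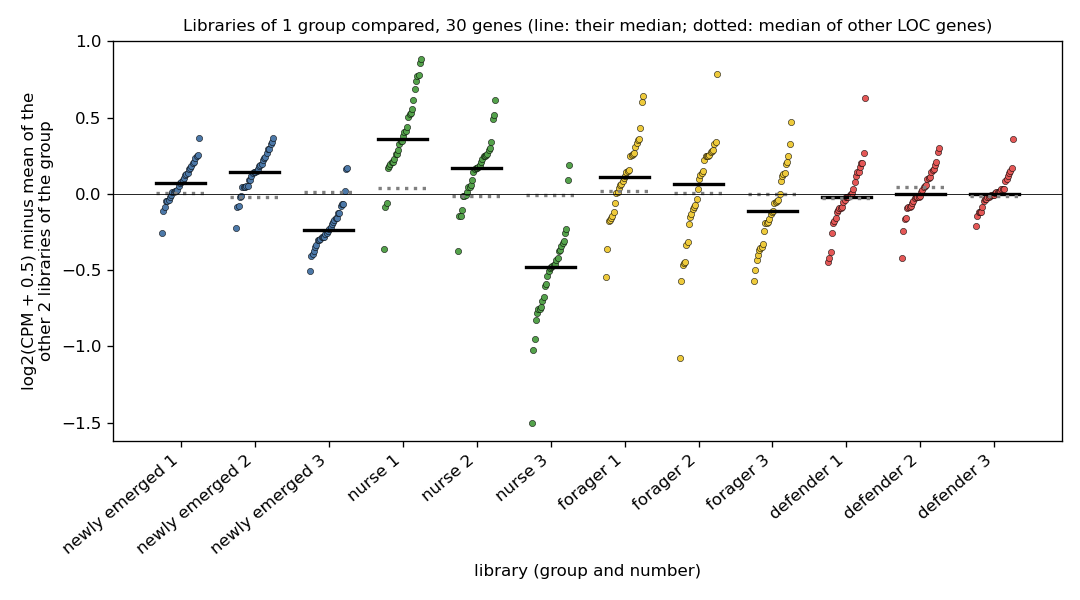
Difference of each library from the mean of the other 2 libraries of its group, in log2(CPM + 0.5), for the 30 genes (points, sorted within a library); the black line is their median and the dotted line the median of the other LOC genes. Nurse library 3 has its median at -0.48 and newly emerged library 3 at -0.24, while the dotted lines stay within 0.05 of 0.

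Or2, the odorant co-receptor and a marker of olfactory neurons, was also low in nurse library 3. It has a symbol and so could not be a member. It was at 321, 392.3 and 385 CPM in defenders, 237, 183 and 100.07 in nurses, 198, 246 and 152 in foragers and 329, 344 and 311 in newly emerged workers. That nurse library was its lowest of the 12, and its margin was 0.15, with the lowest defender library below newly emerged libraries 1 and 2. In whole antennae, fewer cells of a type and less RNA per cell cannot be told apart. Any part of olfactory neuron content in the levels of the 30 genes was not tested.

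By gene order in the Amel_HAv3.1 annotation, none of the 60 genes directly before or after a member was itself a member. Members were only 0.27% of the LOC genes outside the splice tables. The 0 of 60 therefore does not show how the members are arranged. Of the neighbours, 48 were at 5 CPM or more in defenders, and 11 of these were highest in defenders on average, with 0 at a margin of 0.4 or more. The share of all LOC genes at that margin is not given here. Over all LOC genes at 5 CPM or more in defenders, 19.2% were highest in defenders on average. Another annotated gene overlapped 13 of the 30. In 9 of them the overlapping gene was at 5 CPM or more, and the defenders were the highest group on average for 4 of the 10 overlapping genes at that level. These were LOC102655981 (margin 0.18, beside LOC100577262), LOC552430 (0.11, beside LOC102654127), LOC102655223 (0.38, beside LOC409847) and LOC107965825 (0.32, beside LOC551724). All 10 are also direct neighbours, so these 4 are among the 11 counted above. Reads of these 4 pairs may not be told apart, which may have raised that count.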

How the data were processed

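The authors deposited whole-number counts per gene for 12 libraries, not normalized, and 5 tables of splice events whose deposited values are a fraction, the inclusion level. Only the gene names of the splice tables were used. Aligner, counting program, build and strandedness, not given in the sources used here, could not be considered. The labels' processing fields describe a chromatin assay on human cells and were not used. Groups and library numbers came from the sample titles, where the number after Rep disagrees with the number after the group's name for nurse 1 and forager 1; the latter was used. Same-numbered libraries deviated together between newly emerged workers and foragers (correlations of 0.26 to 0.31, a hint from the data and not from the design), but not in every pair with nurses. CPM was count divided by column sum. Members and lists were chosen with earlier results of these data known. Tests used edgeR 4.0.16 in R 4.3.3 (TMM factors, filterByExpr, glmQLFit with robust = TRUE, glmQLFTest, two-sided) with 12 libraries, 4 group means and 8 residual degrees of freedom, and calls at an adjusted p under 0.05. Simulated counts, in which only nurse libraries held changed genes, were also fitted. Their outcome is not given here and is no support for the calls. DESeq2 1.42.0, other scalings, no filter, a replicate block and leaving out libraries were alternatives. All 30 members matched the RefSeq gene list of Amel_HAv3.1 by symbol, used for RNA class and gene order only. Genes were named by margin (10 largest, 3 smallest, 3 just outside), by defender CPM (8 highest) and by calls (4 per direction with the smallest adjusted p); any other gene was named after its values were seen. Lists by product description and promoter motifs were planned and are not used here.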

Additional observations from a re-analysis of the deposited data

How the results depend on the processing

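The rule gave 36 genes with TMM library sizes, all 30 among them, 30 with a pseudocount of 1, 28 with at least 10 CPM, 33 with no minimum and 8 with a margin of at least 0.6. Leaving out each library in turn and applying the rule to the other 11 gave 23 to 73 genes (73 without defender library 1, 47 without newly emerged library 2), and 17 genes met it with TMM sizes, a pseudocount of 1 and every such omission. With nurse library 3 left out, a choice made after seeing the data, the median margin of the 30 was 0.46 and 27 kept a margin of 0.4; without forager library 2 it was 0.50 and 28. Upper-quartile factors gave 7 calls between nurses and newly emerged workers, all higher, where the median of all genes moved to 0.14. Over all tested genes they gave 3081 higher and 1742 lower calls. DESeq2 gave 1 lower call there. With the replicate block there were 8 calls, 3 of them lower, and 1 lower call between foragers and newly emerged workers. Deviations of same-numbered libraries from their group means correlated over 0.1 in 13 of 18 pairs, and 10 of 12 libraries correlated best with their own number. Since 1 pair of newly emerged and nurse libraries was at -0.15 and 1 of nurses and foragers at -0.18, the numbers were not taken to pair nurses with the other groups. Pairs 1, 2 and 3 of nurses and defenders were at -0.36, 0.16 and -0.25. All pairs among newly emerged workers, foragers and defenders were positive, from 0.18 to 0.42. The main fits held no term for the number. Leaving out 1 library at a time gave 2 to 7 calls for nurses against newly emerged workers (2 to 7 higher, 0 to 4 lower), 4 to 8 for foragers against newly emerged workers (3 to 7 higher, 0 to 1 lower) and 0 to 1 for foragers against nurses (0 to 1 higher). Of 162 recomputed values of the 9 calls, 147 stayed past the threshold, 15 did not and 0 changed sign. The causes of these shifts were not tested. With 3 libraries a group, smaller differences may have been missed.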
